A study of Homo sapiens with 18 samples.

Results

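The 8 genes described here are LIN28B, HMGA1, HMGA2, IGF2BP1, IGF2BP2, IGF2BP3, IGF2 and H19, which are known as oncofetal genes because they are expressed in embryonic tissue and again in tumours. They were listed by symbol and matched to 8 of the 63677 Ensembl gene identifiers counted in every library, and all 8 were among the 21028 genes left by a filter on low counts. LIN28B was chosen for its lower level with both KMT2D siRNAs and IGF2 for its difference between KMT2C and KMT2D siRNA in SUIT2, so those values are given as a description, with no test.

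Total RNA was sequenced from PANC1, COLO357 and SUIT2, 3 established human cell lines from ductal carcinoma of the pancreas, 48 h after transfection with a small interfering RNA (siRNA). Each line gave 6 libraries: 1 with the control siRNA, 2 with siRNAs to KMT2D (siRNA1 and siRNA2) and 3 with siRNAs to KMT2C (siRNA1 to siRNA3), 18 libraries in all. KMT2C and KMT2D are histone H3 lysine 4 methyltransferases that act mainly at enhancers, and the study asked how the transcriptome responds to a lower level of either. The knockdown was partial: relative to the control library of each line, KMT2C siRNA left KMT2C mRNA at 68.6% ± 21.1 (SD, n = 9) and below control in 8 of 9 libraries, and KMT2D siRNA left KMT2D mRNA at 59.0% ± 20.8 (n = 6) and below control in 6 of 6. The exception was the library labelled PANC1 KMT2C siRNA2, where KMT2C was at 116% of control. The gene that was not targeted stood at or above control in most libraries, KMT2C at 142% ± 68.7 (n = 6) with KMT2D siRNA and KMT2D at 168% ± 82.7 (n = 9) with KMT2C siRNA.

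Libraries held 14205640 to 32115894 gene counts. In 3 of them more than 20% of read pairs fell in no annotated feature, namely COLO357 KMT2C siRNA3 and SUIT2 KMT2C siRNA2 and siRNA3. All 6 carcinoma epithelial markers (KRT7, KRT8, KRT18, KRT19, EPCAM and CDH1) exceeded 1 CPM (counts scaled to a common library size) in every library of every line. PANC1 had the lowest summed level of these markers, 813 to 1200 CPM, against 4297 to 5470 in COLO357 and, in SUIT2, 2933 to 6839. The leukocyte markers summed to at most 0.791 CPM in PANC1, 0.707 in COLO357 and 9.69 in SUIT2, where LYZ led. Endothelial markers summed to at most 0.169 CPM in PANC1, 28.3 in COLO357, where CDH5 led, and 0.194 in SUIT2. CDH5 in COLO357 moved with the target, at 5.85 CPM in the control, 4.64 and 4.68 with KMT2D siRNA and 27.9, 13.4 and 15.5 with KMT2C siRNA, and its part in the results was not tested. Fibroblast markers, led by COL1A1 in each line, were lowest in SUIT2, with a sum of 1.23 to 5.27 CPM, against 52.1 to 180 in PANC1 and, in COLO357, 23.1 to 152. Endocrine and acinar markers summed to at most 9.87 CPM in PANC1, 2.74 in COLO357 and 2.33 in SUIT2. In RNA from a whole culture, fewer expressing cells and less RNA per cell cannot be told apart.

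The members form a connected circuit. LIN28B is an RNA-binding protein that blocks the maturation of let-7 microRNAs, and let-7 in turn represses LIN28B, HMGA2 and the IGF2BP genes through sites in their 3′ untranslated regions. HMGA1 and HMGA2 are AT-hook proteins that bend DNA in chromatin, and IGF2BP1, IGF2BP2 and IGF2BP3 bind messenger RNAs, IGF2 among them, and protect them from decay. IGF2 is a fetal growth factor that signals through the IGF1 and insulin receptors, and H19 is a non-coding RNA from the neighbouring gene. The IGF2 and H19 pair is imprinted, with IGF2 read from the paternal and H19 from the maternal copy.

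The members separated the cell lines far more than they separated the siRNAs, which was also true of genes in general. Of all genes tested, 66.8%, 59.3% and 59.7% were called in the 3 line contrasts. The share was 1.2% for KMT2D siRNA against control, 0.281% for KMT2C siRNA against control and 5.17% between the targets. LIN28B was in effect a PANC1 gene, IGF2 a SUIT2 gene and H19 a gene of PANC1 and COLO357, while IGF2BP1 was missing from SUIT2. LIN28B ranged from 16.1 to 131 CPM in the 6 PANC1 libraries, with a median of 72.2. In COLO357 it gave 9 read pairs in 6 libraries together, and in SUIT2 32. IGF2BP1 ranged from 70.7 to 133 CPM in PANC1 (median 109) and from 10.8 to 18.9 in COLO357 (median 17.7), and a single read pair was counted over the 6 SUIT2 libraries. IGF2 ranged from 49.2 to 542 CPM in SUIT2 (median 131), from 0.863 to 2.51 in PANC1 (median 1.45) and from 0.219 to 0.66 in COLO357 (median 0.405). H19 ran the other way, from 25.8 to 80.02 CPM in PANC1 (median 69.1), from 20.3 to 90.5 in COLO357 (median 38.2) and from 0.84 to 3.47 in SUIT2 (median 1.53). For IGF2 and H19 the SUIT2 libraries did not overlap those of the other lines. The SUIT2 values of IGF2 are those that chose it, and the share of all genes set apart in this way was not counted.

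The remaining members were present in all 18 libraries and lowest in COLO357. HMGA2 ranged from 7.86 to 29.9 CPM there (median 12.4), against 208 to 433 in PANC1 (median 336) and 188 to 849 in SUIT2 (median 397). HMGA1 ranged from 119 to 153 CPM in COLO357 (median 143), from 296 to 694 in PANC1 (median 460) and from 481 to 1096 in SUIT2 (median 653). IGF2BP3 was at 36.1 to 64.1 CPM in COLO357 (median 54.4), 141 to 201 in PANC1 (median 187) and 238 to 420 in SUIT2 (median 308), 3 ranges that did not meet. The share of all genes with such ranges was not counted. IGF2BP2 was at 32.6 to 48.3 CPM in COLO357 (median 39.4), 106 to 178 in PANC1 (median 150) and 78.6 to 122.6 in SUIT2 (median 100.4), where the last pair of ranges overlapped.

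**Figure D1:**
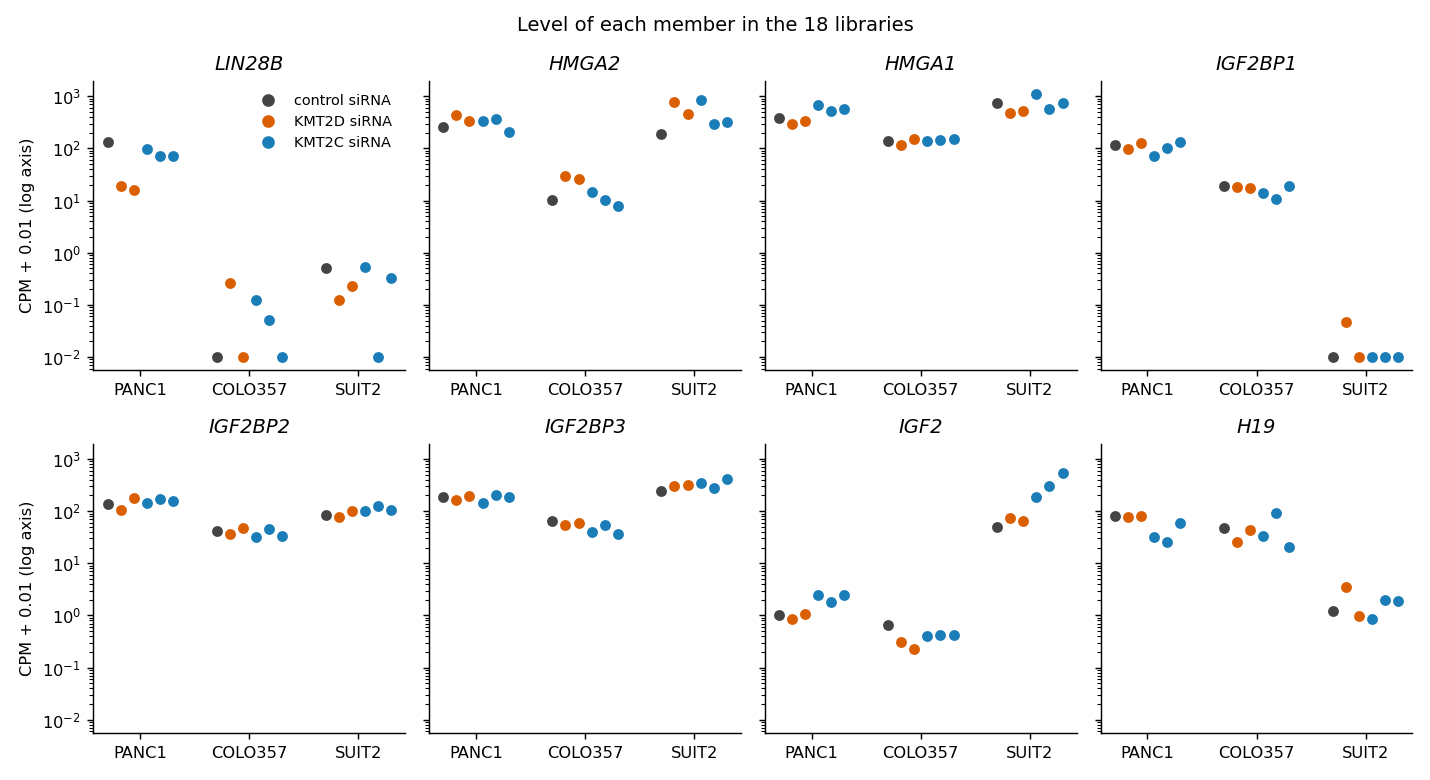
Level of each of the 8 genes in all 18 libraries, as CPM plus 0.01 on a log axis, with the libraries of a line side by side (grey, control siRNA; orange, KMT2D siRNA; blue, KMT2C siRNA). LIN28B is high in PANC1 alone, IGF2 is at 49.2 CPM or more in SUIT2 and at most 2.51 elsewhere, and IGF2BP1 is at or near 0 in SUIT2.

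The line contrasts were tested with edgeR's quasi-likelihood F test over all libraries, with the siRNA target as a term. The background was high, since 66.8% of all genes tested were called for COLO357 against PANC1, 59.3% for SUIT2 against PANC1 and 59.7% for SUIT2 against COLO357. Of HMGA1, HMGA2, IGF2BP2, IGF2BP3 and H19, the 5 members with at least 10 read pairs in every library, 4, 4 and 5 were called in these contrasts. COLO357 was lower than PANC1 in HMGA2 by 21.3-fold (log2 fold change -4.41, SE 0.325), in IGF2BP1 by 6.64-fold (-2.73, SE 0.174), in IGF2BP2 by 3.74-fold (-1.90, SE 0.15), in IGF2BP3 by 3.49-fold (-1.80, SE 0.162) and in HMGA1 by 3.21-fold (-1.68, SE 0.162). IGF2, at 5 to 14 read pairs per COLO357 library, was also lower there, by 3.81-fold (-1.93, SE 0.439, adjusted p = 0.000725). H19 did not pass in that contrast (-0.38, SE 0.388, adjusted p = 0.399). SUIT2 was lower than PANC1 in H19 by 33.3-fold (-5.06, SE 0.474) and in IGF2BP2 by 1.51-fold (-0.60, SE 0.145), and higher in IGF2BP3 by 1.77-fold (0.82, SE 0.157) and HMGA1 by 1.498-fold (0.58, SE 0.157). HMGA2 did not pass between those lines (0.51, SE 0.282, adjusted p = 0.126). SUIT2 exceeded COLO357 in HMGA2 by 30.4-fold (4.92, SE 0.333), IGF2BP3 by 6.17-fold (2.62, SE 0.167), HMGA1 by 4.80-fold (2.26, SE 0.165) and IGF2BP2 by 2.47-fold (1.31, SE 0.148), and was lower in H19 by 25.5-fold (-4.68, SE 0.469). No test is given for LIN28B between lines or for IGF2BP1 against SUIT2, which the low-count filter kept only through the lines that express them, nor for IGF2 in SUIT2, which was chosen on its values there.

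Scaled to exon length, which allows levels of different genes to be compared, HMGA1 was the most abundant member in each control library: 168 CPM per kilobase in PANC1, 58.8 in COLO357 and 326 in SUIT2. In the PANC1 control, IGF2BP2 (29.1), H19 (27.5), LIN28B (21.9), IGF2BP3 (21.6), HMGA2 (16.7) and IGF2BP1 (12.8) followed within a narrow range, and IGF2 was last at 0.142 CPM per kilobase. In the SUIT2 control the order after HMGA1 was IGF2BP3 (28.0), IGF2BP2 (18.1), HMGA2 (12.2) and IGF2 (7.04). With the spread over the 6 libraries of a line, IGF2BP2 (31.4 ± 5.49, SD), IGF2BP3 (21.0 ± 2.59), HMGA2 (20.9 ± 5.18) and H19 (20.5 ± 8.53) of PANC1 were close, and the last 3 did not differ beyond their spread. The lengths are unions of all annotated exons, which for HMGA2 is 15403 bases and lowers its value per kilobase.

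LIN28B (ENSG00000187772, chr6:104936616-105083332, plus strand, GRCh38) was at 131 CPM in the PANC1 control. It was at 18.7 and 16.1 CPM with KMT2D siRNA1 and siRNA2, which is 14.2% and 12.3% of control, and these are values that chose the gene. With KMT2C siRNA1, siRNA2 and siRNA3 it was at 97.0, 72.9 and 71.4 CPM, or 73.8%, 55.5% and 54.3% of control. All 5 libraries were thus below the single PANC1 control, with the KMT2D libraries lowest and apart from the KMT2C libraries. Over the 3 lines the KMT2C contrast did not pass (log2 fold change -0.61, SE 0.464, adjusted p = 0.738), and it shares its controls with the contrast that chose LIN28B. The PANC1 control had the highest level, and without it the KMT2C value was 0.06. That value rests on the COLO357 and SUIT2 controls, at 0 and 11 read pairs, and so cannot measure a response. In COLO357 LIN28B had 0 to 6 read pairs per library and in SUIT2 0 to 11, so no response could be measured there at this depth. LIN28A, the paralogue of LIN28B, named outside the naming rule, stayed between 0 and 0.692 CPM in all lines.

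The feature that ties LIN28B to HMGA2 and the IGF2BP genes is the let-7 seed match, shown here because it defines the circuit. The mature let-7 sequences below are from RefSeq (GRCh38.p14), with the seed, bases 2 to 8 from the 5′ end, in capitals. All 9 let-7 family names examined (let-7a to let-7g, let-7i and miR-98, 5p arms) carry the same seed.
let-7a: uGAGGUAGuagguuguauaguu
let-7b: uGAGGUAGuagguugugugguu
let-7d: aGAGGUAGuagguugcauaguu
let-7f: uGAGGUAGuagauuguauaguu
MicroRNAs of this size were not measured by these libraries, so nothing is known here of the let-7 level.

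The match to the seed, CTACCTC, was searched on the sense strand of the 3′ untranslated region of 1 principal transcript per gene in GENCODE v29 (GRCh38). It was found in 8.60% of 18848 coding genes, and 0.164% of them had at least 3 matches. LIN28B held 4 in 4549 bases, HMGA2 4 in 3003 bases and IGF2BP1 4 in 6206 bases. HMGA1, IGF2BP2 and IGF2BP3 held 1 each, in 1347, 1792 and 2153 bases, and IGF2 held 0 in 3875 bases. Of coding genes with a region of similar length (the shorter of the pair at least 80% of the longer), 23.6% had at least 1 match at the length of LIN28B, 14.7% at that of HMGA2, 30.1% at that of IGF2BP1, 8.52% at that of HMGA1, 11.7% at that of IGF2BP2 and 11.95% at that of IGF2BP3. At least 4 matches were held by 0.233% of these genes at the length of LIN28B, 0.0995% at that of HMGA2 and 0.557% at that of IGF2BP1. Each of these shares includes the member itself. The first match of each gene is printed in the sense of the transcript, with the match, and the A after it where there is one, in capitals.
LIN28B, chr6:105078812-105078834: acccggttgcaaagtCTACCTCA
HMGA2, chr12:65963298-65963320: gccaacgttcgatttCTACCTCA
IGF2BP1, chr17:49051061-49051083: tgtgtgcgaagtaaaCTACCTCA
IGF2BP2, chr3:185644220-185644242: aacacacagaagaagCTACCTCA
IGF2BP3, chr7:23311795-23311817: tgcatttttactcaaCTACCTCA
HMGA1, chr6:34245829-34245851: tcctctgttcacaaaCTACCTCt
A match is a description of the sequence and does not show that let-7 acts there.

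HMGA2 and the IGF2BP genes were not below control with both KMT2D siRNAs in PANC1, where LIN28B was lowest. At 14.2% and 12.3% of control LIN28B with KMT2D siRNA1 and siRNA2, HMGA2 was at 169% and 130% of control, IGF2BP1 at 82.2% and 111%, IGF2BP2 at 76.8% and 130% and IGF2BP3 at 89.0% and 105%. HMGA1 was at 75.7% and 86.8%. LIN28B and HMGA1 were thus the members below the PANC1 control with both KMT2D siRNAs, and the IGF2BP genes lay on either side of it or near it.

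**Figure D2:**
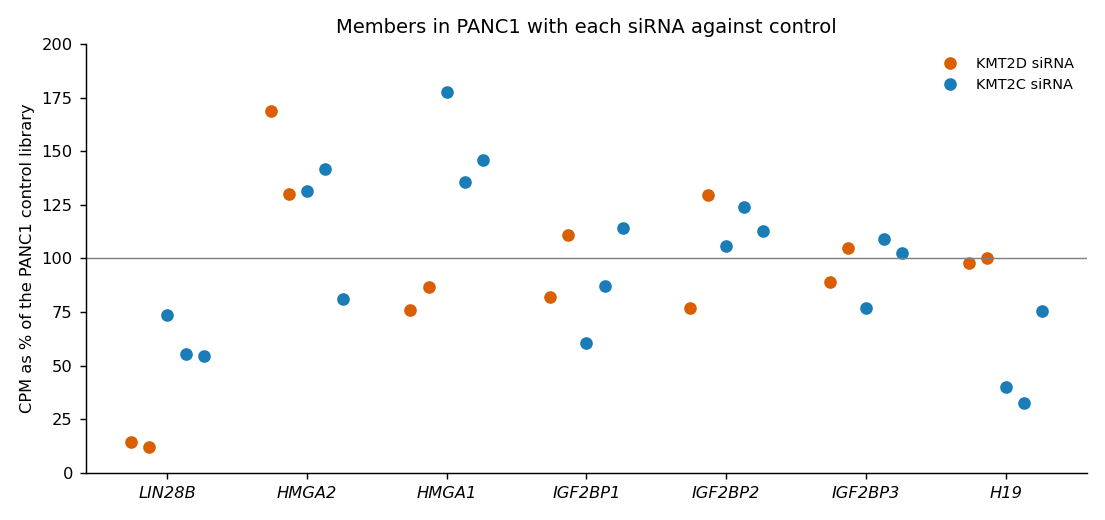
CPM in the 5 PANC1 libraries with KMT2D siRNA (orange) or KMT2C siRNA (blue), as percent of the PANC1 control library (line at 100%); IGF2, at 19 to 61 read pairs per PANC1 library, is left out. LIN28B stands at 12.3% to 73.8%, with the KMT2D libraries lowest, while the IGF2BP genes scatter around 100%.

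HMGA2 (ENSG00000149948, chr12:65824131-65966295, plus strand) was above its line's control in all 6 KMT2D libraries. PANC1 went from 257 CPM in the control to 433 and 334 with KMT2D siRNA1 and siRNA2, COLO357 from 10.4 to 29.9 and 25.4, and SUIT2 from 188 to 771 and 467. With KMT2C siRNA1, siRNA2 and siRNA3 it was at 337, 363 and 208 CPM in PANC1, 14.4, 10.48 and 7.86 in COLO357, and 849, 290 and 326 in SUIT2. The KMT2D libraries stood apart from the KMT2C libraries in COLO357 and overlapped them in PANC1 and SUIT2. As percent of control the mean was 249% ± 98.2 (SD, n = 6, 130% to 410%) with KMT2D siRNA and 161% ± 114 (n = 9, 75.8% to 452%) with KMT2C siRNA.

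For HMGA2 the contrast of KMT2D siRNA with control did not pass (log2 fold change 1.21, SE 0.368, edgeR adjusted p = 0.134, where 1.2% of genes were called). Taken singly, KMT2D siRNA1 passed, at 2.67-fold (1.41, SE 0.33, adjusted p = 0.0262, higher in 3 of 3 lines, background 4.02%). KMT2D siRNA2 gave 0.98 (SE 0.328, adjusted p = 0.0819, background 8.92%). The outcome of this combined contrast varied with method and with 1 library. With DESeq2 on all libraries the adjusted p was 0.0184, and the share of all genes that DESeq2 called is not given here. Without SUIT2 KMT2C siRNA1, a library at 452% of control that is in neither group of the contrast, the edgeR adjusted p was 0.0193. HMGA2 gave -0.67 for KMT2C against KMT2D siRNA (SE 0.257, adjusted p = 0.133), which without the same library was -0.91 (adjusted p = 0.0125).

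HMGA1 (ENSG00000137309, chr6:34236873-34246231, plus strand) was higher with KMT2C than with KMT2D siRNA, the only member called in a contrast of the targets that had not chosen it. In PANC1 it was at 391 CPM in the control, 296 and 339 with KMT2D siRNA1 and siRNA2, and 694, 529 and 570 with KMT2C siRNA1, siRNA2 and siRNA3. In SUIT2 it was at 758 CPM in the control, 481 and 524 with KMT2D siRNA, and 1096, 560 and 745 with KMT2C siRNA. In COLO357 it was at 137 CPM in the control, 119 and 148 with KMT2D siRNA, and 139, 147 and 153 with KMT2C siRNA. The KMT2C libraries were all above the KMT2D libraries in PANC1 and SUIT2, and the groups overlapped in COLO357. How many of all genes separate in this way was not counted, here or for the other members.

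The HMGA1 difference between the targets was 1.48-fold (log2 fold change 0.57, SE 0.146, adjusted p = 0.0285), in a contrast that called 5.17% of all genes. Of the 6 members not chosen by that contrast it was the 1 called. HMGA1 did not pass against control with KMT2D siRNA (-0.31, SE 0.19, adjusted p = 0.544, mean 81.7% of control) or with KMT2C siRNA (0.26, SE 0.184, adjusted p = 0.702, mean 122%). The call was lost without PANC1 KMT2D siRNA1 (adjusted p = 0.0648), SUIT2 KMT2D siRNA1 (0.0644) or SUIT2 KMT2D siRNA2 (0.0515), while the fold kept its direction in all 18 fits that left out 1 library. Each siRNA was used in all 3 lines and the fit treats these libraries as independent: with siRNA as a random effect (limma) the adjusted p was 0.0845, and it was 0.0808 without KMT2C siRNA1, 0.0807 without KMT2C siRNA3, 0.139 without KMT2D siRNA1, 0.241 without PANC1 and 0.142 without SUIT2. Annotated copies of HMGA1 drew read pairs as well, HMGA1P2 2.81% and HMGA1P8 0.869% of the HMGA1 total, so part of the count could be shared.

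**Figure D3:**
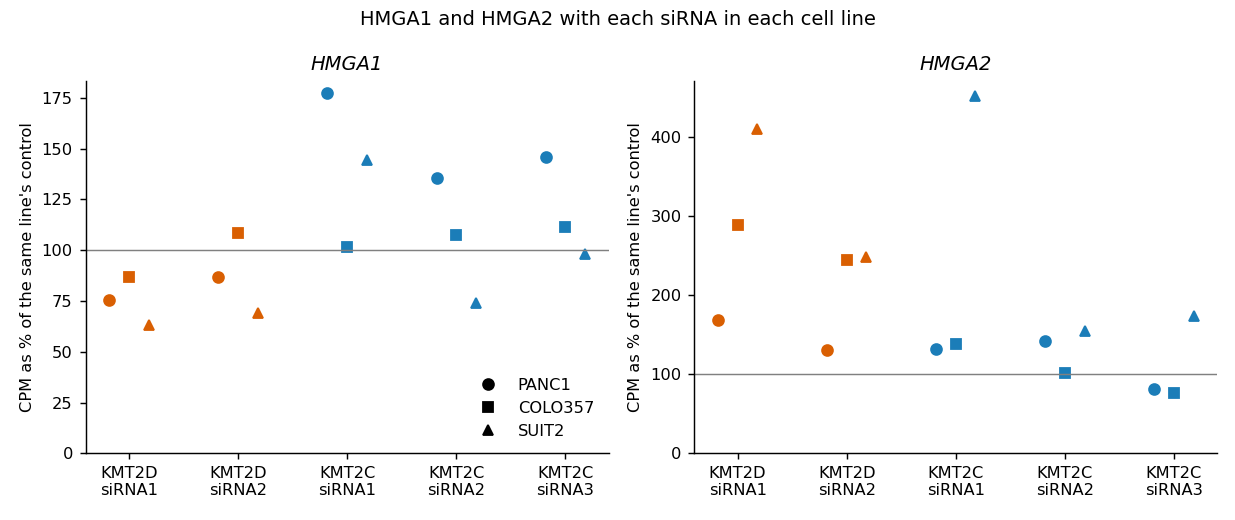
HMGA1 (left) and HMGA2 (right) as percent of the control library of the same line, for each siRNA (orange, KMT2D; blue, KMT2C) and line (circle, PANC1; square, COLO357; triangle, SUIT2). All 6 KMT2D points of HMGA2 lie above 100%, from 130% to 410%, and the SUIT2 library with KMT2C siRNA1 stands at 452%.

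No IGF2BP gene passed a contrast of the siRNAs. IGF2BP1 (ENSG00000159217, chr17:48997412-49055650, plus strand) was at 117 CPM in the PANC1 control, 95.9 and 129 with KMT2D siRNA, and 70.7, 102 and 133 with KMT2C siRNA1, siRNA2 and siRNA3. In COLO357 it was at 18.9 CPM in the control, 18.02 and 17.4 with KMT2D siRNA and 14.2, 10.8 and 18.8 with KMT2C siRNA. The groups overlapped in both lines. Its log2 fold change was -0.06 (SE 0.244, adjusted p = 0.964) with KMT2D siRNA and -0.28 (SE 0.227, adjusted p = 0.758) with KMT2C siRNA.

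IGF2BP2 (ENSG00000073792, chr3:185643739-185825056, minus strand) was above control in 3 of 6 KMT2D and 7 of 9 KMT2C libraries, between 76.8% and 143% of control. In SUIT2 its KMT2C libraries, at 102, 122.6 and 104 CPM, lay above its KMT2D libraries, at 78.6 and 98.6. Its log2 fold change was 0.04 (SE 0.178, adjusted p = 0.967) with KMT2D siRNA and 0.12 (SE 0.169, adjusted p = 0.886) with KMT2C siRNA. IGF2BP3 (ENSG00000136231, chr7:23310209-23470467, minus strand) was above control in 3 of 6 and 5 of 9 libraries. In SUIT2 it exceeded the control of 238 CPM in all 5 libraries (274 to 420 CPM), and in COLO357 it was below the control of 64.1 CPM in all 5 (36.1 to 59.4 CPM). Over the lines the IGF2BP3 value was 0.03 (SE 0.192, adjusted p = 0.98) with KMT2D siRNA and -0.05 (SE 0.181, adjusted p = 0.967) with KMT2C siRNA. MALSU1, a gene on the opposite strand that overlaps IGF2BP3, had 20.6% as many read pairs, and no source used here gives the strand setting of the counting.

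IGF2 (ENSG00000167244, chr11:2129112-2149603, minus strand) was at 49.2 CPM in the SUIT2 control, 73.8 and 65.5 with KMT2D siRNA1 and siRNA2, and 187, 297 and 542 with KMT2C siRNA1, siRNA2 and siRNA3. These are the values that chose the gene, and the groups do not overlap. Percent of control in SUIT2 was 150% and 133% with KMT2D siRNA and 381%, 605% and 1102% with KMT2C siRNA. The KMT2C siRNA2 and siRNA3 libraries of SUIT2 are among those with over 20% of read pairs in no annotated feature, and the siRNA1 library, which is not, was at 381%. The part of that difference in the level of IGF2 was not tested.

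The PANC1 and COLO357 libraries did not enter the choice of IGF2. In PANC1 it was at 0.988 CPM in the control, 0.863 and 1.06 with KMT2D siRNA, and 2.51, 1.83 and 2.45 with KMT2C siRNA, from 30, 19, 25, 61, 33 and 58 read pairs in that order. The KMT2C libraries were all above the other 3, at 254%, 185% and 247% of control, and how many of all genes split in this way was not counted. The test of KMT2C against KMT2D siRNA within PANC1 did not pass (log2 fold change 1.23, SE 0.393, adjusted p = 0.394). In COLO357 IGF2 was at 0.66 CPM in the control, 0.301 and 0.219 with KMT2D siRNA and 0.392, 0.417 and 0.42 with KMT2C siRNA, from 5 to 14 read pairs. There the KMT2C libraries lay above the KMT2D libraries in CPM but below the control (0.64, SE 0.581, edgeR adjusted p = 0.88). The read pairs were 7 and 5 with KMT2D siRNA and 7, 10 and 7 with KMT2C siRNA. That order thus came in part from library size and is not read as a repeat of the other lines.

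H19 (ENSG00000130600, chr11:1995176-2001470, minus strand) lies 127.641 kb from the nearer end of IGF2. In PANC1 it was at 79.8 CPM in the control, 78.0 and 80.02 with KMT2D siRNA, and 32.1, 25.8 and 60.2 with KMT2C siRNA1, siRNA2 and siRNA3. All 3 KMT2C libraries were below the other 3, at 40.2%, 32.4% and 75.5% of control, and the same libraries had the higher IGF2 level. The share of all genes that split in this way in PANC1 was not counted. Among them, the lowest H19 level, with siRNA2, went with the smallest IGF2 rise (185% of control). In COLO357 it was at 47.0 CPM in the control, 25.3 and 42.9 with KMT2D siRNA, and 33.5, 90.5 and 20.3 with KMT2C siRNA, with no separation. In SUIT2 it was at 1.18 CPM in the control, 3.47 and 0.969 with KMT2D siRNA, and 0.84, 2.0 and 1.88 with KMT2C siRNA. With KMT2C siRNA2 and siRNA3 it was thus at 169% and 159% of control there, in libraries where IGF2 was also above control. With siRNA1 it was at 71.0%. After the mean of each line was subtracted, the Pearson r of H19 and IGF2 over the 18 libraries was -0.06.

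H19 passed no contrast of the siRNAs. KMT2C against KMT2D siRNA gave -1.002 within PANC1 (SE 0.575, adjusted p = 0.756), 0.50 within COLO357 (SE 0.592, adjusted p = 0.919) and -0.51 within SUIT2 (SE 0.7, adjusted p = 0.8). Over the lines it was 0.06 with KMT2D siRNA (SE 0.485, adjusted p = 0.982) and -0.29 with KMT2C siRNA (SE 0.459, adjusted p = 0.906). INS-IGF2 and MIR483, annotated inside or over IGF2, had 0 read pairs in all libraries, and IGF2-AS, on the opposite strand, had 0.26% of the IGF2 total.

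**Figure D4:**
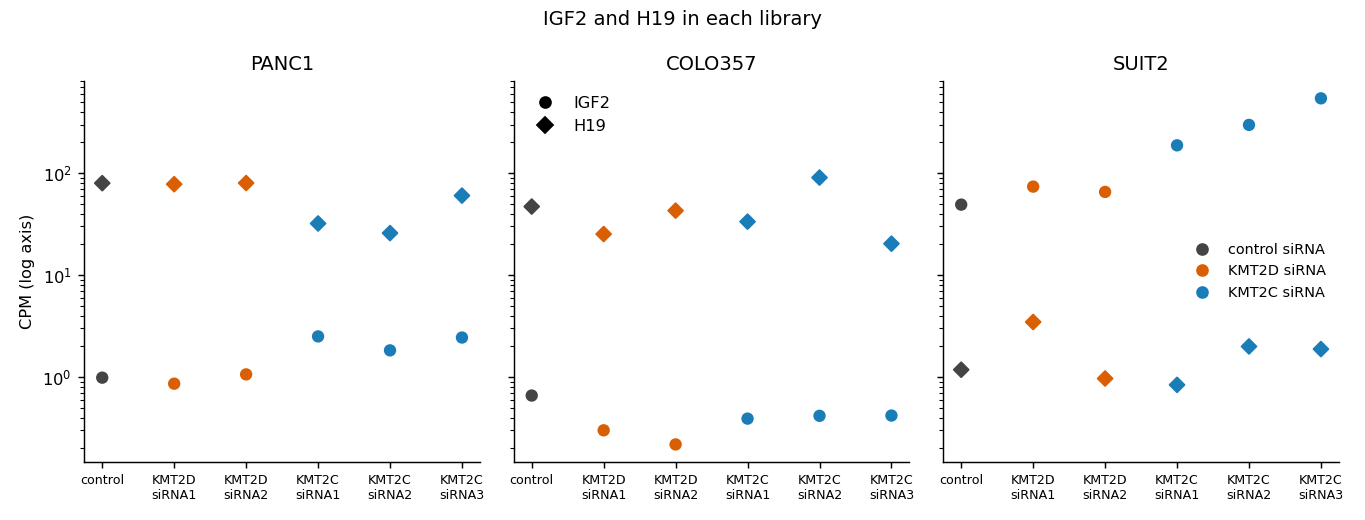
IGF2 (circles) and H19 (diamonds) in each library of the 3 lines, as CPM on a log axis (grey, control siRNA; orange, KMT2D siRNA; blue, KMT2C siRNA). H19 lies above IGF2 in PANC1 and COLO357 and below it in SUIT2, where IGF2 runs from 49.2 to 542 CPM.

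Counted over the members that the rule did not choose on the contrast in question, edgeR's test called 0 of 6 for KMT2D siRNA against control, where it called 1.2% of all genes. There 1 member was at an unadjusted p under 0.05 (12.6% of all genes) and 1 was called by DESeq2 (HMGA2 in both). The share of all genes that DESeq2 called is not given here, so its calls have no background. For KMT2C siRNA against control edgeR called 0 of 7 members and 0.281% of all genes. There 0 members were at an unadjusted p under 0.05 (9.18% of all genes) and 0 were called by DESeq2. Among single siRNAs against control, 0 of 7 were called with KMT2C siRNA1 (3 at an unadjusted p under 0.05, background 1.2% called and 11.2% unadjusted), KMT2C siRNA2 (1, background 5.81% and 19.6%) and KMT2C siRNA3 (0, background 0.623% and 10.52%). KMT2D siRNA1 called 1 of 6, HMGA2, with 2 at an unadjusted p under 0.05 (background 4.02% and 17.6%), and KMT2D siRNA2 called 0 of 6, with 1 (background 8.92% and 22.4%). DESeq2 was not run on single siRNAs.

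**Figure D5:**
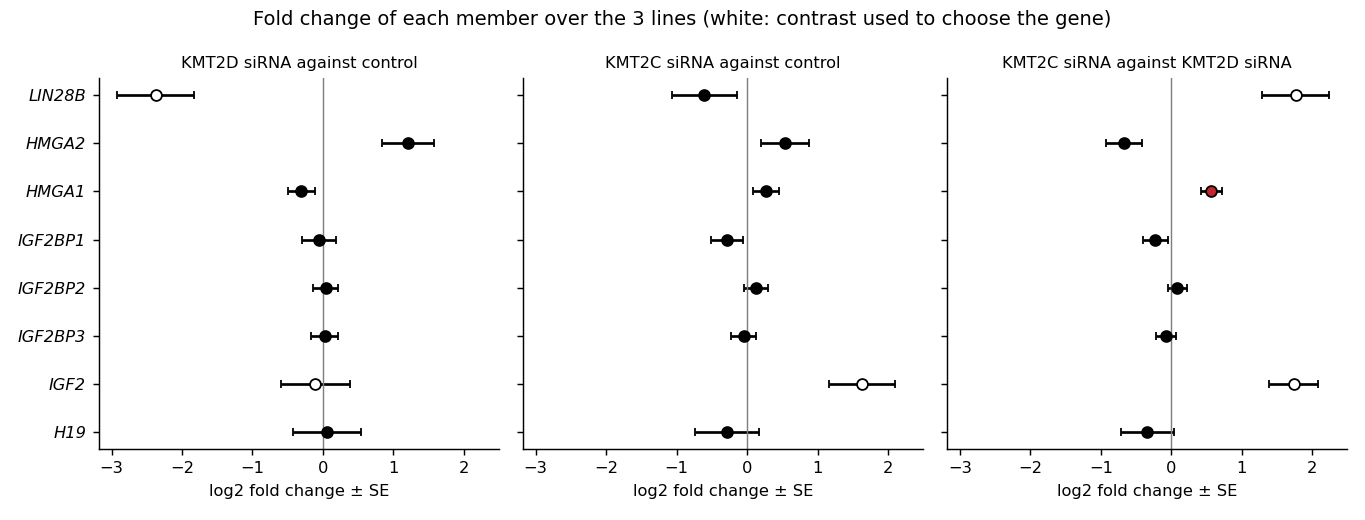
Log2 fold change of each member over the 3 lines with its standard error, for KMT2D siRNA against control, KMT2C siRNA against control and KMT2C against KMT2D siRNA. White points are contrasts that chose the gene and carry no test, and the red point, HMGA1 at 0.57, is the one called among the others.

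Within a line, KMT2C against KMT2D siRNA called no member outside the choosing values, in fits that called few genes of any kind. In PANC1 edgeR called 0 of 7 members (2 at an unadjusted p under 0.05) and 0% of all genes, in COLO357 0 of 7 (1) and 0.00476%, and in SUIT2 0 of 6 (1) and 0.133%. Of all genes, 7.68%, 6.30% and 14.0% were at an unadjusted p under 0.05 in these fits. HMGA1 was at 0.91 in PANC1 (SE 0.243, adjusted p = 0.242), 0.67 in SUIT2 (SE 0.241, adjusted p = 0.23) and 0.13 in COLO357 (SE 0.238, adjusted p = 0.957). HMGA2 was at -1.34 in COLO357 (SE 0.414, adjusted p = 0.613) and at -0.34 in PANC1 and SUIT2. An effect that differs between lines was tested for KMT2D, KMT2C and their contrast. It was called for 0% of genes in each, with 475, 469 and 703 of the 21028 at an unadjusted p under 0.05, and for no member, each at an adjusted p of 1. DESeq2 was not run on these fits.

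The other genes of the circuit were described by list, against a background between the targets of 5.17% of all genes called. At an unadjusted p under 0.05 the background was 12.6% for KMT2D siRNA against control, 9.18% for KMT2C siRNA against control and 22.1% between the targets. Of 17 tested genes of LIN28 and let-7 processing outside the members, 1 rose with KMT2C against KMT2D siRNA and 0 fell, near the 5.17% of all genes, at a list median of 0.14 on the log2 scale against -0.01 for all genes. That gene was AGO2, the slicing subunit of the microRNA silencing complex (1.46-fold, log2 fold change 0.54, SE 0.118, adjusted p = 0.0123). Its level was 98.9 to 169 CPM in the 9 KMT2C libraries, each above its control, and 64.4 to 137 in the 6 KMT2D libraries. Against control, 0 of the 17 passed with KMT2D siRNA (3 at an unadjusted p under 0.05) or with KMT2C siRNA (2).

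Of 33 let-7 target genes outside the members, 2 rose with KMT2C against KMT2D siRNA and 0 fell, near the 5.17% of all genes, at a list median of -0.07. ARID3B, a DNA-binding AT-rich interaction domain protein, differed 2.16-fold (1.11, SE 0.161, adjusted p = 0.000941). It was below control in 6 of 6 KMT2D libraries (41.4% to 92.9%) and above it in 7 of 9 KMT2C libraries (90.0% to 197%), although neither contrast with control passed. E2F2, a cell cycle transcription factor, differed 1.64-fold (0.71, SE 0.177, adjusted p = 0.0244). Against control 0 of the 33 passed with either target, with 9 at an unadjusted p under 0.05 for KMT2D and 5 for KMT2C siRNA. The 3′ untranslated regions of 20 of the 32 list genes that could be searched held the seed match.

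Among 13 transcripts known to be bound by IGF2BP proteins, 2 rose with KMT2C against KMT2D siRNA and 0 fell, beside the 5.17% of all genes, at a list median of 0.09. SRF, the serum response transcription factor, differed 1.75-fold (0.81, SE 0.128, adjusted p = 0.00195) and was above control in 9 of 9 KMT2C and 1 of 6 KMT2D libraries. MKI67, the proliferation marker Ki-67, differed 1.67-fold (0.74, SE 0.188, adjusted p = 0.0283). Against control 0 of the 13 passed with KMT2D siRNA (1 at an unadjusted p under 0.05) or KMT2C siRNA (2).

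In the insulin-like growth factor axis, which holds the receptors IGF1R, IGF2R and INSR, the IRS adaptors and the IGF-binding proteins, 0 of 15 tested genes passed any of these contrasts. At an unadjusted p under 0.05 the counts were 1 for KMT2D and 0 for KMT2C siRNA against control and 0 between the targets, where the list median was -0.17. Of 18 tested imprinted genes outside the members, GRB10, an adaptor that dampens insulin and IGF1 receptor signalling, was the 1 called. The call held for KMT2D siRNA against control (1.2% of all genes called) and between the targets (5.17%), where the list median was 0.11. At an unadjusted p under 0.05 the counts were 5 for KMT2D siRNA against control (12.6% of all genes), 3 for KMT2C siRNA against control (9.18%) and 3 between the targets (22.1%). GRB10 rose 2.21-fold with KMT2D siRNA against control (1.14, SE 0.166, edgeR adjusted p = 0.000891), with all 6 libraries at 185% to 249% of control. With KMT2C siRNA it stood at 132% to 216% of control in all 9 libraries (0.70, SE 0.155, adjusted p = 0.0526), and it was lower with KMT2C than with KMT2D siRNA (-0.44, SE 0.116, adjusted p = 0.0328). Of 13 tested oncofetal and embryonic genes of another list, 0 passed any of the contrasts (1, 2 and 2 at an unadjusted p under 0.05), with a median of -0.07 between the targets. Of 9 tested genes that overlap, oppose or copy a member, 0 passed (1 at an unadjusted p under 0.05 in each contrast).

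The genes whose pattern over the 18 libraries was most like that of a member, after the mean of each line was subtracted, were found among 12735 genes with a mean of at least 2 CPM. For LIN28B they were H2BC13 (r = 0.84), CCT6P2 (0.83) and H2AC21 (0.81), and for HMGA2 they included C12orf57 (0.91) and NDUFS4 (0.84). For IGF2 they were FBXW4 (0.85), PTPN18 (0.83) and ZNF827 (0.83). None is named for IGF2BP1, which had at most 1 read pair per SUIT2 library, and for LIN28B the likeness rests on libraries of which the 12 from COLO357 and SUIT2 held at most 11 read pairs each. The patterns of LIN28B and IGF2 include the values that chose these genes. The libraries share line, siRNA and control, and the r values are descriptions without a test.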

How the data were processed

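The deposited tables hold unnormalized counts, the number of read pairs assigned to each Ensembl identifier, 1 table per library, which the authors made with TopHat2 and HTSeq on hg19, per the submitters' processing notes, which also name FastQC and edgeR. No source used here gives the annotation release or the strand setting. The 5 entries that name no gene (32.98% to 53.39% of read pairs) were left out of library sizes and tests. Symbols were matched for 52526 identifiers (82.5%) from a separate list of gene names and, where it had none, from GENCODE v29. GENCODE v29 is an annotation of GRCh38 that also gave the printed gene coordinates and exon lengths.

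All 18 libraries were fitted with edgeR 4.0.16 in R 4.3.3 (TMM factors, robust quasi-likelihood F test, filter by expression at a minimum count of 10 and a total of 15, Benjamini-Hochberg adjustment over 21028 genes), with target and line as terms. Further fits had a level per siRNA, or 9 groups of line by target, in which a line's lone control is assumed to vary like the other groups. SE was obtained by dividing the absolute log2 fold change by the root of F. CPM uses TMM-scaled library sizes, and the likeness used log2 CPM with a prior count of 2. Alternatives were DESeq2 1.42.0, limma 3.58.1 (voom, siRNA as a random effect), other size factors, no filter, a block on the siRNA number, and leaving out libraries, siRNAs or lines. On simulated data for KMT2D siRNA against control (20038 genes, 200 changed), 66% of genes changed 2-fold and 100% of those changed 4-fold were recovered, with 9.78% false calls.

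The members, gene lists and tests were chosen with earlier results of these data known. Named genes were all members, list genes with an adjusted p under 0.05 in a main contrast of siRNA targets (at most 4 per list), and the 3 genes most like LIN28B, HMGA2, IGF2 and IGF2BP1, of which 1 is not reported here and those of IGF2BP1 are not named. The labels name no separate cultures, so the p-values reflect only how far these libraries vary. Libraries of the same line and target carry different siRNAs, and those of the same siRNA come from different lines. That variation thus mixes differences between siRNAs and lines with any technical part, and the fits cannot separate them. Libraries were spread over sequencing pools that the labels do not assign, so no batch could be entered.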

Additional observations from a re-analysis of the deposited data

Results flagged for a closer look

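Of 12 groups of libraries in which a member's percent of control was examined for a library far from the others, 2 were marked, and chance marks about 1 in 20. HMGA2 in the SUIT2 library with KMT2C siRNA1 was at 452% of control, far above the next KMT2C library at 174%. H19 in the SUIT2 library with KMT2D siRNA1 was at 294% of control, against 100.3% in the next KMT2D library, and rests on 92 read pairs against 26 in the SUIT2 control.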

How the results depend on the processing

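Of 618 alternative values of 22 single results, 567 kept direction and side of the threshold, 10 lost the call, 8 gained it and 33 reversed; the cause was not tested. For KMT2D siRNA against control, 1 member in place of 0 was called with no filter on low counts, with DESeq2 and without KMT2C siRNA1. Between the targets, 2 in place of 1 were called with no filter, and 0 with limma and siRNA as a random effect, with the replicate block, without KMT2C siRNA3, without KMT2D siRNA1, without PANC1 and without SUIT2. With no filter, KMT2C siRNA1 called 2, KMT2C siRNA2 1 and KMT2D siRNA2 1. siRNA numbers of the targets name different sequences and so pair nothing; with the replicate block 1191 genes were called between the targets against 1087, and HMGA1 stood at 0.57 (edgeR adjusted p = 0.0505). Leaving out 1 library gave 0 to 1 members for KMT2D siRNA against control and 0 to 2 between the targets. Except for the replicate block, the number of all genes called in these alternative fits is not given here. Their member counts are thus not read as a result about the members.

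Reversed log2 fold changes were these. H19 with KMT2D siRNA was -0.20 with limma, -0.078 without KMT2D siRNA1 and -0.18 without SUIT2. IGF2BP3 with KMT2C siRNA was 0.0186 with limma, 0.0151 without KMT2C siRNA1 and 0.22 without COLO357. IGF2BP2 between the targets was -0.0191 without KMT2C siRNA2, -0.16 without KMT2D siRNA1 and -0.0337 without SUIT2. With KMT2D siRNA, IGF2BP1 was 0.0171 without siRNA1, IGF2BP2 -0.23 and IGF2BP3 -0.0481 without siRNA2, and IGF2BP3 -0.11 without SUIT2. Without PANC1, H19 was 0.17 with KMT2C siRNA and 0.0727 between the targets, and without COLO357 IGF2BP3 was 0.0795 between the targets. Leaving out 1 library gave, with KMT2D siRNA, -0.0477 to 0.134 for IGF2BP2, -0.16 to 0.37 for H19, -0.18 to 0.25 for IGF2BP3 and -0.126 to 0.0304 for IGF2BP1. It gave, with KMT2C siRNA, -0.648 to 0.00555 for H19, -0.26 to 0.16 for IGF2BP3 and -0.783 to 0.0627 for LIN28B, and between the targets -0.00528 to 0.17 for IGF2BP2. With a prior count of 0.5, 1 of 3 genes most like LIN28B and 0 of 3 most like IGF2BP1 were found again. Depth limits LIN28B in COLO357 and SUIT2, IGF2BP1 in SUIT2, IGF2 in COLO357 and H19 in SUIT2.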
